A study of Mus musculus with 5 samples.

Results

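Cd207 and Clec4f are neighbouring mouse genes for C-type lectins, receptors that bind sugars in a calcium-dependent way. They are 2 of the 21631 protein-coding genes annotated on chromosomes 1 to 19 and X, and they were picked because a single wide region of the histone mark H3K27me3 lies over both. The width of that region is therefore the reason for the choice and is given as a description. Cd207 encodes langerin, the receptor that forms the Birbeck granules of Langerhans cells, which are the antigen-presenting cells of the epidermis. Clec4f encodes a galactose-binding lectin known as a marker of Kupffer cells, the resident macrophages of the liver. The name of the locus thus describes Cd207 better than Clec4f, and the lists hold no expression values with which to check either.

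The chromatin came from basal epidermal progenitors of control mice at postnatal day 71. The animals carried K14-RFP, a reporter driven by a basal keratin gene, and K10-H2B-GFP, a nuclear reporter driven by a suprabasal keratin gene. Back skin cells were sorted as Sca1 positive, RFP high and GFP negative, so the sort was built to take keratinocytes. Each antibody was used on 2 libraries and 1 further library was input, and the labels give neither the sex of the mice nor how many were used. The authors deposited 1 list of called regions per mark, 15102 for H3K27me3 and 33155 for H2AK119ub, so the spread between replicates and the read depth are unknown and no test was made.

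H3K27me3 is laid down by Polycomb repressive complex 2 and H2AK119ub by Polycomb repressive complex 1. Both complexes keep genes of other lineages silent, and in mammals they gather at promoters rich in CG dinucleotides, so-called CpG islands. Keratinocytes are epithelial cells, whereas Langerhans cells and Kupffer cells descend from haematopoietic precursors. Next to the lectin genes lies Vax2, a homeobox transcription factor gene that patterns the ventral eye, with its antisense transcript gene Vax2os.

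The starts of both lectin genes lay inside both marks although they hold almost no CG dinucleotides, and the sequences just before the starts are shown for that reason, with the start of Vax2os from the same H3K27me3 region for contrast. Each is 250 bases upstream of the annotated start on the minus strand of chromosome 6, from RefSeq for GRCm38.p6, the same build as mm10. They cover chr6:83677858-83678107, chr6:83656117-83656366 and chr6:83712202-83712451, in the order printed. Capitals mark every CG dinucleotide and the single AP-1 consensus TGACTCA.
Cd207: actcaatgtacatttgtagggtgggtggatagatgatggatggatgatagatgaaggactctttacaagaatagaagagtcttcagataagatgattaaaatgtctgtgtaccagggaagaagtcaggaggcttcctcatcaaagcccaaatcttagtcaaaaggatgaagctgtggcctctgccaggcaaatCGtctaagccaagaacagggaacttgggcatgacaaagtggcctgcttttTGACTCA
Clec4f: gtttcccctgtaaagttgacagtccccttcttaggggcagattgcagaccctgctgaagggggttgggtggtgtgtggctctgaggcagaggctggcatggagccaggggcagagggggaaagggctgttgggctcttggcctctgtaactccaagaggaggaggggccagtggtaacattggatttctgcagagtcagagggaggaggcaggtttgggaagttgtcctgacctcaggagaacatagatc
Vax2os: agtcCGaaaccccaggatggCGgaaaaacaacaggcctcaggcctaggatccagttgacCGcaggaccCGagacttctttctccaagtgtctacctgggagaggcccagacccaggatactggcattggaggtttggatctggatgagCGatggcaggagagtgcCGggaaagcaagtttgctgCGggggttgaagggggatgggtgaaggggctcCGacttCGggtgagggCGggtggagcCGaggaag
The Cd207 stretch holds 1 CG and the Clec4f stretch holds 0, against 11 in the Vax2os stretch.

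The H3K27me3 region over the lectin genes ran for 158 kb on chromosome 6, from 83577066 to 83735426. Clec4f (83644542 to 83656116, gene ID 51811) and Cd207 (83671207 to 83677857, gene ID 246278) lay wholly within it, as did the sequence between them. Together the genes and the stretch between them spanned 33.3 kb, or 21.0% of the region. The Clec4f start site was almost at the middle of the region, 79.05 kb from its left edge and 79.3 kb from its right edge. The Cd207 start site was 100.8 kb from the left edge and 57.6 kb from the right edge. An H3K27me3 region lay within 1 kb of an end of 24.7% of protein-coding genes, and since the members were chosen by this mark their own calls add nothing to that.

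**Figure D1:**
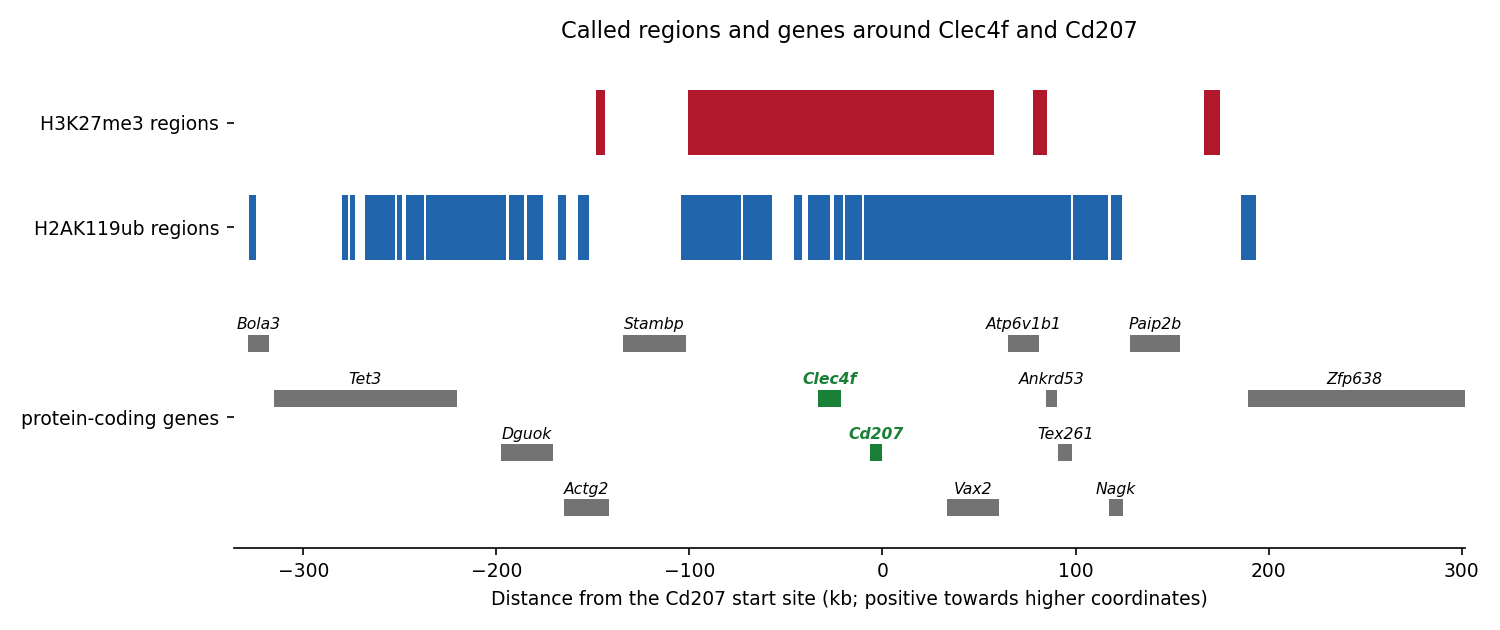
Map of the called regions (red, H3K27me3; blue, H2AK119ub) and protein-coding genes (grey; Clec4f and Cd207 in green) by distance in kb from the Cd207 start site. A single red block of 158 kb spans Clec4f, Cd207 and most of Vax2, and the blue track breaks into 7 regions beneath it.

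The left edge of the H3K27me3 region stood 1.24 kb beyond Stambp, a gene for a deubiquitinating enzyme of the endosome, which had no base under this mark. From there it crossed 67.5 kb without a protein-coding gene before it reached Clec4f. On the other side it passed Cd207, then 14.9 kb of sequence between genes, then all of Vax2os, and it ended inside Vax2. The mark covered 89.3% of the Vax2 body and stopped 2.89 kb short of its far end. The nearest H3K27me3 regions were 42.9 kb away on the left and 20.4 kb away on the right. The table of genes used here gives first and last positions without exons, so coverage is stated over gene bodies and not by exon or intron.

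H2AK119ub was measured with another antibody and was not used to choose the genes. Both lectin genes carried it within 1 kb of an end, as 57.1% of protein-coding genes did, so its presence alone does not set them apart. Both marks together were found at the ends of 21.1% of protein-coding genes. The Cd207 body lay wholly inside 1 H2AK119ub region of 107 kb, from 83668415 to 83775464. That region is the 261st widest of 30089 autosomal H2AK119ub regions and the 10th of 1675 on chromosome 6. H3K27me3 covered the whole body of 4.06% of autosomal protein-coding genes, H2AK119ub that of 16.5% and both marks that of 3.21%, and Cd207 is in each group. Clec4f is in the first only. Both genes are in the first group by the choice, and 663 of its 840 genes are in all 3 groups.

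Clec4f had less of its body in H2AK119ub than Cd207. It was covered to 84.6%, in 2 separate regions of 11.5 kb and 4.71 kb. The region at its start reached 1.29 kb upstream and 3.42 kb into the gene. A gap of 1.78 kb followed, between 3.42 kb and 5.20 kb downstream of the start site, and the 11.5 kb region then took up the rest of the gene. In all, 38.9% of autosomal protein-coding genes had a wider H2AK119ub region at an end than Clec4f, while the figure for Cd207 was 3.45%. Genes without the mark at an end are in this total and count as narrower. The width taken for Clec4f is that of the 11.5 kb region at its far end, not of the 4.71 kb region at its start. With gaps of at most 3 kb joined, H2AK119ub covered 100% of Clec4f, and with only regions of at least the list's median width it covered 55.1%.

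In the regions as called, H2AK119ub was broken on the Clec4f side of the H3K27me3 region and unbroken from Cd207 onwards. From the left edge to Clec4f it covered 76.3% of the sequence, in 4 regions of which the first began 3.56 kb outside H3K27me3, within Stambp. Between Clec4f and Cd207 it covered 86.1%. From the lower end of Cd207 to the right edge it was continuous, at 100%. The region over Cd207 began 2.79 kb before the gene's lower end. Over its whole length 87.4% of the H3K27me3 region was also H2AK119ub, and the 6 gaps added up to 19.9 kb. The longest gap, of 11.6 kb, lay between Stambp and Clec4f and contained no annotated gene. The only gap that touched a gene was the 1.78 kb gap inside Clec4f. That gap and those between Clec4f and Cd207 were all under 3 kb. Joining gaps of at most 3 kb closes them, so the contrast between the lectin genes rests on short gaps. The 11.6 kb gap before Clec4f is too long to be closed in this way.

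On the Vax2 side H2AK119ub went on for 40.04 kb after H3K27me3 had ended. It covered all of Atp6v1b1, a subunit gene of the vacuolar proton pump, and all of Ankrd53, an ankyrin repeat gene. It also covered 91.2% of Tex261 and stopped 0.635 kb before that gene's far end. H3K27me3 returned over this stretch as a 7.29 kb region that covered 18.95% of Atp6v1b1 and 8.76% of Ankrd53. On the Stambp side the marks ended within 3.56 kb of each other. The edges of the marks were thus close at Stambp and far apart at Vax2.

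**Figure D2:**
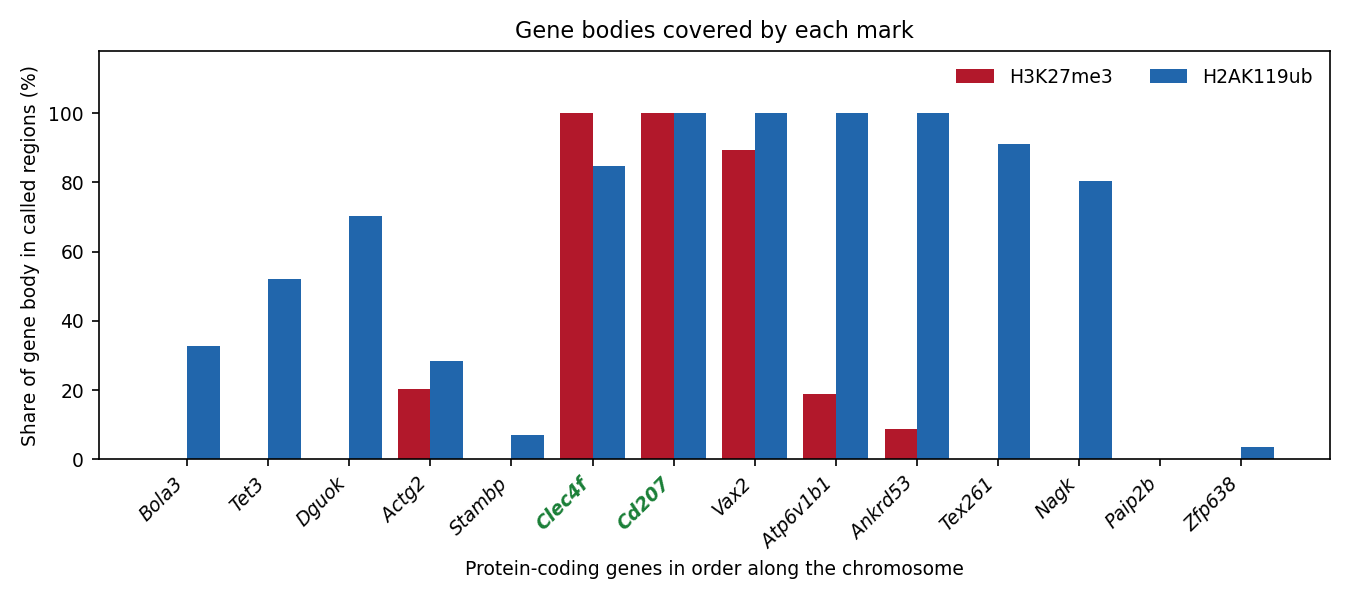
Share of each gene body (per cent) in called regions of H3K27me3 (red) and H2AK119ub (blue) for the 14 protein-coding genes of the window, in chromosome order. Clec4f and Cd207 are at 100% for H3K27me3, Vax2 is at 89.3%, and no other gene exceeds 20.4%.

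The lectin genes and Vax2 stood apart from their neighbours in H3K27me3, which follows from the choice of the locus by its wide region. The window of 300 kb on either side of the gene pair, 633 kb in all, held 33 annotated genes, of which 14 code for proteins. H3K27me3 covered 28.2% of the window in 4 regions, and H2AK119ub covered 50.3% in 21 regions. Left of the wide region H3K27me3 covered 2.05% and H2AK119ub 46.6%, and right of it the figures were 6.34% and 29.7%. Within the window 81.7% of the H3K27me3 length was also H2AK119ub. Of the 14 protein-coding genes, Clec4f, Cd207, Vax2, Atp6v1b1 and Ankrd53 had both marks within 1 kb of an end. The other genes with H2AK119ub there, and no H3K27me3, were Bola3, Tet3, Dguok, Actg2, Stambp, Tex261, Nagk and Zfp638, and Paip2b had neither mark. Both marks at 5 of 14 compare with 21.1% of all protein-coding genes, and H2AK119ub at 13 of 14 with 57.1%. Of the 11 protein-coding genes outside the wide region, 10 had H2AK119ub.

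The neighbours with H2AK119ub and no H3K27me3 near an end differed in how much of the body the mark covered. Tet3, an enzyme that oxidises methylated cytosine, was covered to 52.2% by 6 H2AK119ub regions. Dguok, a mitochondrial nucleoside kinase gene, was covered to 70.2%, and Nagk, which salvages N-acetylglucosamine, to 80.5%. Bola3, a mitochondrial iron-sulphur cluster factor, was covered to 32.6%. Stambp (7.10%) and Zfp638 (3.55%), a zinc finger gene, were touched only at an end. Actg2, a smooth muscle actin gene, had a 4.77 kb H3K27me3 region inside its body that did not come within 1 kb of an end, and it carried H2AK119ub over 28.4%.

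The 19 annotated genes of the window that do not code for proteins followed the region they lay in. Vax2os, Gm32943, Gm25054, Gm7424 and LOC115490483 lay wholly inside both marks. Gm21284, a long non-coding RNA gene that crosses the left edge, was covered to 55.1% by H3K27me3 and to 72.8% by H2AK119ub, and its listed promoter lay outside both. The small gene 1700124L16Rik, beyond Vax2, also lay wholly inside both marks. B230319C09Rik, Gm52907, Gm7443 and LOC665004 had H2AK119ub over at least 95.5% of their bodies and no H3K27me3. Mir6374 lay 0.178 kb from an H2AK119ub region. Gm38844 and Gm6342 had H3K27me3 alone, over 15.7% and 98.0%. Gm18537, Gm52908, Gm23014, Gm5312 and Gm5138 had neither mark.

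The promoters of the lectin genes were poor in CG for promoters under both marks. A promoter here is the 300 bp from 250 bases before to 50 bases after an annotated start. Those of Cd207 and Clec4f lay wholly inside both marks, as did 13.1% of the 20063 autosomal promoters listed for protein-coding genes. H2AK119ub took in 37.9% of them whole, with or without H3K27me3, and H3K27me3 took in 15.9%. Of the 3190 promoters wholly inside H3K27me3, 2622 were also wholly inside H2AK119ub. The choice by H3K27me3 thus made the H2AK119ub call likely too. The 2622 promoters wholly inside both marks had a median of 16 CG dinucleotides, with quartiles of 8 and 26. Cd207 had 2 and Clec4f had 0. No more than 2 were found in 139 of these promoters (5.30%) and 0 in 14 (0.534%), against 17.5% and 4.41% of all listed promoters. Base composition as such was not low at Clec4f, where G and C made up 57.3% of the promoter, and it was 43.3% at Cd207.

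**Figure D3:**
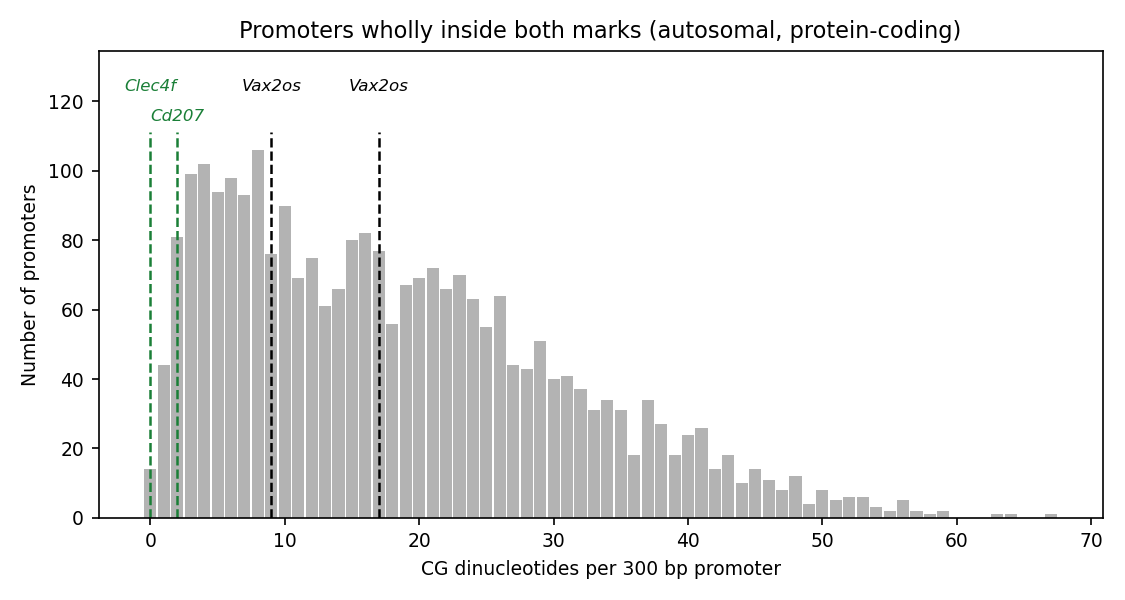
Number of autosomal promoters of protein-coding genes wholly inside both marks (grey bars, 2622 promoters) by their count of CG dinucleotides in 300 bp. Dashed lines mark Clec4f at 0, Cd207 at 2 and the starts of the non-coding gene Vax2os at 9 and 17, which are not part of the bars.

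The start of Vax2 itself was not analysed here. Of the listed starts in the same H3K27me3 region, those at the Vax2 end held more CG dinucleotides. Vax2os has listed starts with 9 and 17 CG dinucleotides, and Gm32943, which lies inside Vax2, has a start with 16. All of them lay wholly inside both marks. Among the 139 promoters under both marks with no more than 2 CG dinucleotides, those of the lectin genes had the widest H3K27me3 region. This follows from the way the genes were picked. Of the 139, 4 lay in H3K27me3 regions of 100 kb or more. They were those of the lectin pair and a pair of starts of 1 gene, Gpr1, a chemerin receptor gene, in a region of 107 kb. The share in such regions among all 2622 promoters under both marks was not computed, so the count has no reference.

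Sequence motifs were looked for on both strands of the 300 bp promoters, with a list drawn up after the promoter sequences had been seen. The AP-1 consensus (TGACTCA) occurred once at Cd207, in the 7 bases just before the annotated start, and not at Clec4f. It is present in 5.23% of the 32585 listed promoters. The Smad box (CAGAC) occurred once at each gene, and 49.5% of listed promoters hold it. Neither gene held the PU.1 core (GAGGAAGT), the Runx core (TGTGGT), the homeodomain core (TAATTA), the TATA box (TATAAA) or the E-box (CACGTG), which occur in 3.22%, 16.6%, 5.26%, 13.7% and 7.20% of promoters. These are matches of letters and say nothing of binding.

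Among wide H3K27me3 regions the lectin locus was near the middle in its share of H2AK119ub. In the number of H2AK119ub pieces as called it was near the top. By width the region was the 11th of 12952 autosomal H3K27me3 regions and the 1st of 755 on chromosome 6. Just above it stood the region of Hoxc13, Hoxc12 and Hoxc11 on chromosome 15, at 159.5 kb, and just below it that of Foxl1 and Foxc2 on chromosome 8, at 157.8 kb. The 8 regions wider still had Foxf1, Pax2, Foxb1, Tbx4, Arhgap26, Hoxd9, Skap1 and Dmrt3 nearest their centres, and Barhl2 came next at 162.9 kb. Most of these genes encode developmental transcription factors. In the lectin region Clec4f is the gene nearest the centre, and the developmental factor gene, Vax2, lies at the edge.

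There were 50 autosomal H3K27me3 regions of 100 kb or more. H2AK119ub covered 87.4% of the lectin region, against a median of 82.8% (quartiles 72.5 and 98.8%) in the other 49, of which 26 were covered less and 23 more. It overlapped 7 H2AK119ub regions, against a median of 3 in the others. Of the 49, 44 overlapped fewer and 4 overlapped more, namely those of Foxf1 (13), Pax2 (12) and Foxb1 (8) and a region of chromosome 5 without a protein-coding gene (9). The region of Pik3r5 and Ntn1 equalled it. Its largest single piece of H2AK119ub made up 42.3% of the region, against a median of 58.3%. Wider regions can hold more pieces, and the calling threshold sets where a piece ends. In the lectin region 4 of the 6 gaps between pieces were under 3 kb. Piece counts with such gaps joined were not computed for the 50 regions, so the rank by pieces holds only for the regions as called.

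**Figure D4:**
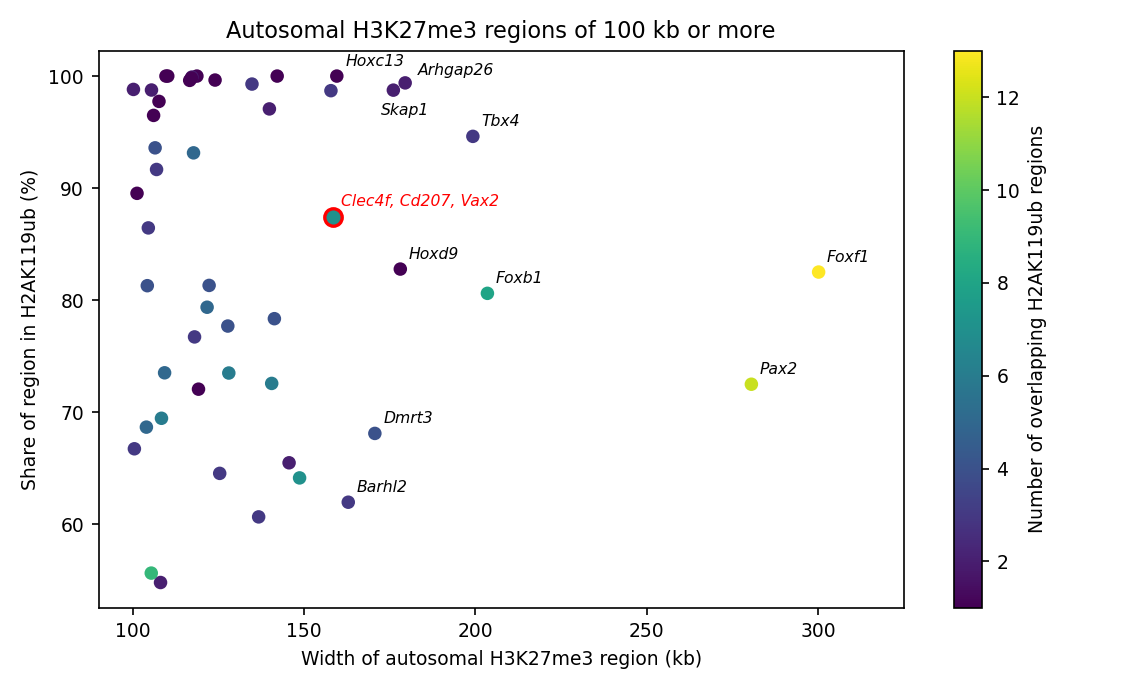
Share of each autosomal H3K27me3 region of 100 kb or more that lies in H2AK119ub (per cent) against its width (kb), with colour for the number of overlapping H2AK119ub regions. Each point is 1 of 50 regions, and the red ring marks the lectin region at 158 kb, 87.4% and 7 regions.

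Genes with the most similar pattern were found from the share of the body under each of the 2 marks, with ties ordered by the width of the H3K27me3 region. For Cd207 there were 662 other autosomal genes with both shares at 100%. Nearest in width were Foxc2 and Foxl1 (157.8 kb), then Hoxc13, Hoxc12, Hoxc11 and Hoxc10 (159.5 kb). For Clec4f the nearest were Gm46022, Pcdh8, Hapln3, Foxi2, Eef1a2 and Ces2a. All had 100% of the body in H3K27me3, and their H2AK119ub shares ran from 82.9 to 86.3%. Their H3K27me3 regions ran from 19.1 kb at Pcdh8 to 90.6 kb at Hapln3, all narrower than that of Clec4f.

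No other listed C-type lectin gene lay wholly inside H3K27me3, a state found for only 4.06% of autosomal protein-coding genes. The lectin pair was picked by this mark, so its own full coverage follows from the choice. Of 65 listed lectin genes, 14 (21.5%) had H3K27me3 within 1 kb of an end, near the 24.7% of all protein-coding genes, and 20 (30.8%) had H2AK119ub, against 57.1%. Without the lectin pair the counts were 12 and 18 of 63. The other 12 H3K27me3 genes had regions from 2.36 to 43.4 kb wide, with a median of 8.06 kb. The widest was at Ly75, the gene for DEC-205 of dendritic cells, followed by Asgr2 (14.7 kb), a subunit of the liver asialoglycoprotein receptor. Colec11 (11.4 kb) and Colec12 (9.47 kb), which encode collectins, Mgl2 (10.05 kb), a macrophage galactose lectin gene, and Cd72 (9.62 kb), a B cell receptor gene, came next. H2AK119ub alone was widest at Clec16a (107.5 kb), Klrg2 (33.1 kb), Clec18a (19.2 kb) and Clec11a (16.2 kb).

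The comparison by gene cluster was made after the values had been seen. Among all protein-coding genes 24.7% had H3K27me3 within 1 kb of an end and 57.1% had H2AK119ub. The share with neither mark was not computed, and each cluster holds few genes. Chromosome 6 also holds the Clec4a, Clec4b, Clec4d, Clec4e and Clec4n genes of myeloid cells. All 9 listed, spread over 368 kb from 122921848 to 123289871, had neither mark at their ends or in their bodies. Of 12 listed Clec1, Clec2, Clec7, Clec9 and Clec12 genes between 128662385 and 129472785, none had H2AK119ub and 2 had H3K27me3, Clec9a and Clec1a, which share a 2.36 kb region. On chromosome 8, 8 of the 9 listed Cd209, Clec4g and Fcer2a genes had neither mark, and Cd209g had H2AK119ub alone. The cluster most like the lectin pair was on chromosome 11, where Asgr1, Asgr2, Mgl2 and Clec10a lie within 122 kb. All 4 had H2AK119ub, and Asgr1, Asgr2 and Mgl2 had H3K27me3, but only Asgr2 had much of its body under it (81.0%).

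Genes of the cell types in which the lectins are known to act carried the marks in part. For comparison, H3K27me3 lay within 1 kb of an end of 24.7% of all protein-coding genes and H2AK119ub of 57.1%. Of 35 listed Langerhans cell genes, 13 (37.1%) had H3K27me3 and 29 (82.9%) had H2AK119ub. Without Cd207, which was picked by its H3K27me3, the counts were 12 and 28 of 34. After Cd207 the widest H3K27me3 regions were at Mfge8 (90.6 kb), which bridges apoptotic cells to phagocytes, and Runx3 (63.2 kb), a factor needed for Langerhans cells. Ly75 (43.4 kb), H2-Eb1 (40.5 kb) and H2-Ab1 (21.6 kb) of the class II complex, Irf8 (34.7 kb), a myeloid transcription factor, and Ccr6 (28.1 kb), a chemokine receptor, followed. These are widths of regions within 1 kb of an end, and the region at H2-Eb1 covered 0% of its body. H2AK119ub alone was found at 17, with the widest regions at Id2 (93.8 kb), Cd83 (76.8 kb), Sirpa (75.3 kb) and Cebpa (48.7 kb). Several of these genes, such as Id2 and Epcam, are also used by epithelial cells. H2-DMb1, Adgre1, Cd86 and Ctss had neither mark, and Cd1d1 had neither at its ends, with H2AK119ub over 26.6% of its body.

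Of 24 listed Kupffer cell genes, 11 (45.8%) had H3K27me3 and 15 (62.5%) had H2AK119ub, against 24.7% and 57.1% of all protein-coding genes. Without Clec4f, picked by its H3K27me3, the counts were 10 and 14 of 23. After Clec4f the widest H3K27me3 regions were at Vsig4 (117 kb), a complement receptor gene on X, and at C1qb (68.2 kb), C1qa and C1qc (36.8 kb), the adjacent genes of complement C1q. Widths on X may not compare with autosomal ones, since the X-linked housekeeping genes Hprt and Pgk1 lay in regions of 1114 and 49.5 kb. Fcgr4 (21.2 kb) and Kcna2 (18.0 kb) came after. Kcna2 had no H2AK119ub within 1 kb of an end, but the mark covered 20.8% of its body. H2AK119ub alone was widest at Folr2 (35.01 kb), Csf1r (28.4 kb), Maf (22.9 kb) and Hmox1 (17.6 kb). Neither mark lay within 1 kb of an end at 7 of the 24, Timd4, Cd5l, Nr1h3, Adgre1, Cd163, Il18bp and Cdh5. Of 32 leukocyte genes, 9 (28.1%) had H3K27me3 and 14 (43.8%) had H2AK119ub. The first share is near the 24.7% of all protein-coding genes and the second is below their 57.1%. The median width of their H3K27me3 regions was 10.1 kb, with the widest at Cd3d and Cd3g (20.7 kb, shared), Cd3e (13.6 kb), Cd4 (11.5 kb) and Lcp1 (10.1 kb), and then Kit, Coro1a and Tyrobp. The region at Tyrobp lay outside its body. H2AK119ub alone was widest at Cd79b (36.98 kb), Thy1 (25.8 kb) and Cd2 (19.6 kb). Neither mark lay at the ends of 17 of the 32, among them the panleukocyte gene Ptprc and the genes Cd8a, Cd8b1 and Ms4a1. Over these 4 lists, 150 distinct autosomal genes were found, and Cd207 and Clec4f were the only ones in an H3K27me3 region of 100 kb or more, the property by which they had been picked.

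**Figure D5:**
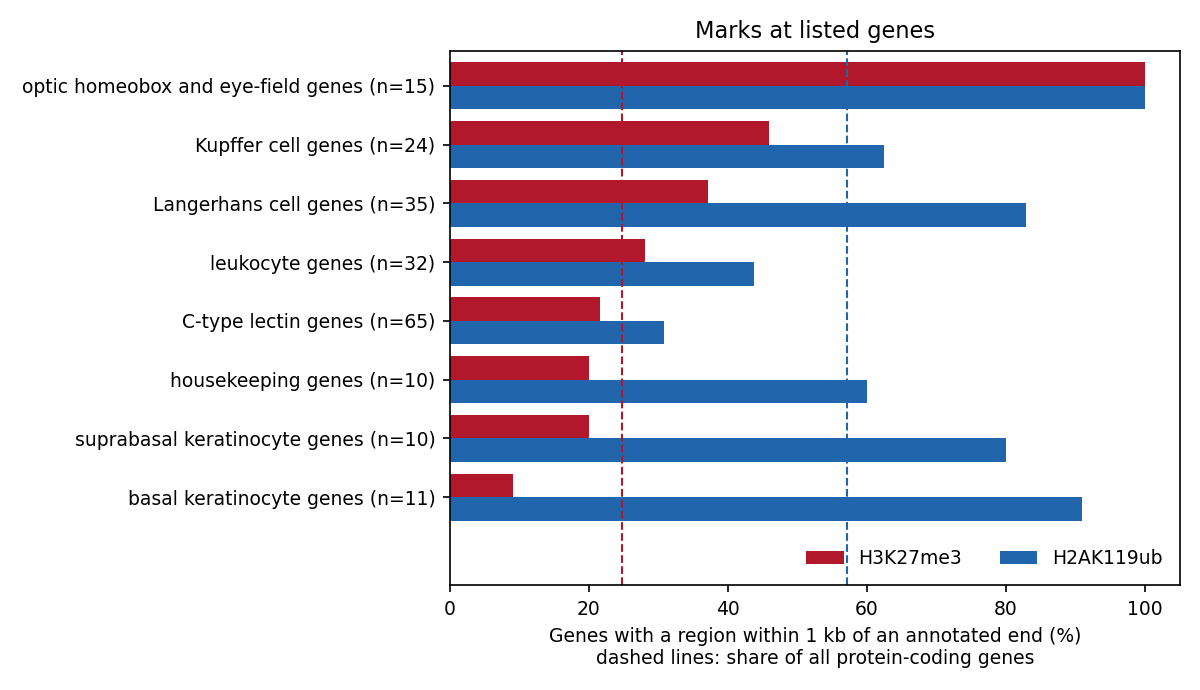
Share of listed genes (per cent) with H3K27me3 (red) or H2AK119ub (blue) within 1 kb of an annotated end, with the number of genes in brackets and dashed lines at 24.7% and 57.1% for all protein-coding genes. The optic homeobox list, which holds Vax2, is at 100% for both marks, and the C-type lectin list is at 21.5% and 30.8%.

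All 15 listed eye-field and related homeobox or paired factor genes had both marks, against 21.1% of all protein-coding genes. They had 15 different H3K27me3 regions, and the list was chosen with earlier results of these data known. The count includes Vax2, which shares the region by which the lectin pair was picked, and Six3 shares its region with Six2. Pax2 (281 kb) had the widest region, followed by Vax2 itself, Lhx2 (135 kb), Six3 (122 kb), Six6 (86.1 kb), Otx2 (84.9 kb), Pax6 (65.5 kb) and Rax (47.5 kb). Vax1, the closest relative of Vax2, had 45.1 kb. Genes of the sorted cells are given against the same shares of all protein-coding genes, 24.7% for H3K27me3 and 57.1% for H2AK119ub, and these lists are short. Of 11 basal keratinocyte genes, 10 (90.9%) had H2AK119ub, and 1, the cytoskeletal linker gene Dst, had H3K27me3 (19.4 kb). H2AK119ub alone was found at the keratin genes Krt14 and Krt15 (202 kb, shared) and Krt5 (75.01 kb), at the anchorage genes Itgb4 (83.6 kb), Lamb3, Col17a1, Itga6 and Itgb1, and at Ly6a, a gene for Sca1 (9.46 kb). Trp63 had neither mark at its ends. Of 10 suprabasal genes, 2 had H3K27me3, Krt10 (9.57 kb) and Lor (4.14 kb), and 8 had H2AK119ub. Those with H2AK119ub alone were Krt1 (137 kb), Krtdap, Calml3, Sbsn, Ivl and Dsc1, and Flg and Dsg1a had neither mark. Of 10 housekeeping genes, the X-linked Hprt and Pgk1 had both marks, and Actb, Eef2, Gapdh and Rplp0 had H2AK119ub alone.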

How the data were processed

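Chromatin immunoprecipitation and sequencing of sorted basal epidermal cells was deposited as 1 table of regions per mark, and per the file headers each row gives a chromosome and the first and last position. No other measure per region was analysed here. Per the submitters' processing notes, which state no role or order, the tools include Bowtie2 2.3.3.1 and SAMtools 1.9 and the build is mm10. The sources used here name no peak caller, threshold, use of input or pooling of libraries, and these choices decide where a region ends or splits. Read depth is unknown, so no interval or detection limit is given, and a gene without a region may carry the mark below the threshold.

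Starts were read as counted from 0. Genes came from the RefSeq table of GRCm38.p6, and start sites and sequences from the RefSeq promoter table of that build, which lists Cd207 and Clec4f. A gene had a mark when at least 1 bp of a region lay within 1 kb of an annotated end. Coverage was computed with Python 3.11.15 and pandas 2.3.3, and the arithmetic was tested on simulated intervals. The members and the 8 lists (203 symbols, 202 found) were chosen with earlier results of these data known. Named genes were both lectin genes, all genes of the window, for each list the 8 with the widest H3K27me3 and the 4 with the widest H2AK119ub alone (every marked gene where 10 or fewer had a mark), the 10 widest autosomal regions, and the 6 nearest genes in pattern. Any other name was picked with the values in view, and some genes that the rule takes are left out. No tests were made.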

Additional observations from a re-analysis of the deposited data

How the results depend on the processing

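No paired analysis was possible because the deposited lists carry no replicate and no result comes from a test, and for the same reason no library could be left out. Of 62 recomputed values, 47 stayed within 1% of the reported coverage or width, or within 1.5 times a reported count, and 15 did not. Full H3K27me3 coverage of both genes, full H2AK119ub coverage of Cd207 and the width of the region stayed the same under all alternatives tried for them. This was fixed in advance and says nothing of their robustness. Regions this wide pass the width filter, joining gaps cannot lower full coverage, and counting starts from 1 moves an edge by 1 bp. The nearest H3K27me3 regions lay too far off to be joined. These values are counted among the 47. With only regions of at least their list's median width (8.43 kb for H3K27me3 and 8.09 kb for H2AK119ub), H2AK119ub covered 55.1% of Clec4f and 42.1% of the window, H3K27me3 covered 25.01% of the window, and 8 C-type lectin genes had H3K27me3. With gaps of at most 3 kb joined, H2AK119ub covered 100% of Clec4f and 52.7% of the window, and 84.4% of the H3K27me3 length in the window was shared with it. With 100 kb either side the window was covered to 71.0% by H3K27me3 and 78.7% by H2AK119ub, with 88.0% of the H3K27me3 length shared. With 500 kb H3K27me3 covered 25.03% and 80.2% was shared. When at least 50% of the body had to be covered, the H3K27me3 counts were 5 C-type lectin, 7 Langerhans cell and 4 leukocyte genes, and 11.7% of all protein-coding genes met that rule. A call over promoters was not used for the lists, since the promoter table held 22 of 35 Langerhans cell genes.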

Other observations

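Of the 20 gaps between neighbouring H2AK119ub regions of the window, 12 were under 3 kb, and 2 of these touched a listed promoter. The gap of 0.927 kb between the region over Cd207 and the next one held the listed starts of Tex261 and Gm52907. These starts are on opposite strands and point away from each other, with 29 and 38 CG dinucleotides in 300 bp. The gap of 1.597 kb on the far side of that next region held the start of Nagk, with 17. None of the 6 gaps inside the wide H3K27me3 region touched a listed promoter.

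The 14 promoters wholly inside both marks without a CG dinucleotide included, besides Clec4f, those of the hair keratin-associated genes Krtap5-1 and Krtap4-8, the germ cell genes Nanos2 and Khdc3, the mast cell tryptase gene Tpsg1, the platelet glycoprotein gene Gp5 and the DNA-sensing receptor gene Tlr9. Their H3K27me3 regions were 22.6, 9.75, 6.66, 3.71, 10.9, 19.8 and 4.81 kb wide in that order. These genes were named after their values had been seen.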
